A study of Mus musculus with 16 samples.

Results

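The genes described here are the tumor suppressor p53 and genes of its pathway: Trp53, Mdm2, Ccng1, Cdkn2a, Perp, Sesn2, Zmat3, Bbc3, Trp53inp1 and Phlda3. They were taken by symbol, and each gene was read from the probe set with the highest mean over all arrays, out of 19938 genes measured. Trp53 itself was not analysed here, so 9 of the 10 genes have values, each from 1 probe set. The samples were 3 secondary kidney tumors, 3 kidney tumors, 3 normal kidneys, 3 liver tumors, 3 normal livers and 1 culture of ES cells, each on its own 1-channel Affymetrix array. The kidney tumors came from reprogrammable mice that received Dox, short for doxycycline, for 7 days beginning at 4 weeks of age, and they were taken 7 days after its withdrawal. Liver tumors were primary tumors of such mice, with no time given, and secondary kidney tumors had been transplanted beneath the skin of immunodeficient hosts. Normal kidney was of the same age as the kidney tumors, and no age is given for normal liver. The mice had been made from an ES cell line of 129xC57BL6 F1 background, so that tumors and normal tissues were of that background or a mixture of its parent strains, and the ES cell sample was 129xC57BL6 as well. The tumors had arisen in chimeric mice and may hold ICR host cells, and the secondary tumors may hold cells of the immunodeficient host. Which reprogramming transgenes the mice carried and what drove them is not given in the sources used here. No label says that the 3 samples of a group were taken from separate animals. Each p-value therefore reflects only scatter between arrays, some of which may be technical. That scatter was pooled over all groups of 3 arrays, and not only those compared.

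p53 is a transcription factor that DNA damage and other stresses stabilise, and it is also a barrier to the reprogramming of somatic cells. Mdm2, itself a p53 target, encodes the ubiquitin ligase that marks p53 for degradation, and the Arf product of Cdkn2a restrains Mdm2. Targets of p53 halt the cell cycle, start apoptosis, or adjust metabolism and growth signalling. Transcripts of such targets are often used as a readout of p53 activity, but many of them also answer to other factors in kidney and liver.

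Promoter windows from RefSeq (GRCm38.p6, 250 bases before to 50 bases after a start site) were held for 7 of the 10 genes, in 10 windows. They were searched for the p53 decamer consensus, which reads the same on both strands, and for 2 such decamers up to 13 bases apart. An exact decamer was found in the windows of Ccng1, Mdm2 and Trp53, and in 8.36% of all 32851 windows. The Ccng1 window held 2 adjoining decamers with 1 mismatch in total, as close a match as 1.09% of all windows had. The Ccng1 window is shown for its close pair, the Mdm2 window for its exact decamer, and the first Bbc3 window for an adjoining pair with more mismatches. Sesn2, Phlda3 and Cdkn2a had no exact decamer in their windows, and the best pairs there had 4 mismatches or more. Capitals mark the best decamer pair in Ccng1 (chr11:40755237-40755536, minus strand) and Bbc3 (chr7:16309333-16309632, plus strand) and the exact decamer in Mdm2 (chr10:117710709-117711008, minus strand).
Ccng1: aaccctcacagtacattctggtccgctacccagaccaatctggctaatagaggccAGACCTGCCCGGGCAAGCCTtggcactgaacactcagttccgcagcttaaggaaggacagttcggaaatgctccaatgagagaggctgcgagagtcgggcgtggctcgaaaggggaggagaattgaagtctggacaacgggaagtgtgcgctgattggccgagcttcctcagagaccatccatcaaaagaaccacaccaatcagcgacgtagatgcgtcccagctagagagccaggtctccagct
Mdm2: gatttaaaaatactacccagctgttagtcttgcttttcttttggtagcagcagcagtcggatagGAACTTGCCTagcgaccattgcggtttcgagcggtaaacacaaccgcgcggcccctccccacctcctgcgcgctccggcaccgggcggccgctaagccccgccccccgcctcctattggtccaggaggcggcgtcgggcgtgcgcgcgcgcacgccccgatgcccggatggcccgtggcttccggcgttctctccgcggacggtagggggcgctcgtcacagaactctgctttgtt
Bbc3: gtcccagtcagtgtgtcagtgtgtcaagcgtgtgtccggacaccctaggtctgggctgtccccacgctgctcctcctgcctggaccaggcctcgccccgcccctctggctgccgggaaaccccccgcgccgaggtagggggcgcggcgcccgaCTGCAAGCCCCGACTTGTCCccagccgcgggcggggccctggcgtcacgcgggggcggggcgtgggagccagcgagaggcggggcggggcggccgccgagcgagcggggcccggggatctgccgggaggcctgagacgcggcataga
The Bbc3 pair had 3 mismatches, a closeness that 45.1% of all windows reached, so the mismatch count alone does not set that window apart. Such a count cannot tell a site that p53 uses from one that it does not. For Cdkn2a RefSeq gave 2 windows, at chr4:89294570-89294869 and chr4:89282143-89282442. They belong to separate first exons, the upstream one used for Arf and the downstream one for Ink4a, and 1 probe set cannot say which of these products gave its signal. A match to these letters is a description and does not show that p53 binds there.

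The called differences of the 9 genes against normal tissue ran from -1.13 to 1.10. All values are log2 of the deposited intensity, so a difference of 1 is 2-fold. A gene was called when limma's adjusted p over all 19938 genes was under 0.05. Errors beside levels are SDs over 3 arrays and errors beside differences are SEs. Kidney tumors had 1 gene of 9 higher and 2 lower than normal kidney, where 49.8% of all genes were called, 21.7% higher and 28.1% lower. Secondary kidney tumors also had 1 higher and 2 lower than normal kidney, where 68.6% of all genes were called, 29.9% higher and 38.7% lower. Liver tumors had 4 higher and 2 lower than normal liver, where 52.3% of all genes were called, 21.5% higher and 30.7% lower. Set directly against kidney tumors, secondary tumors had 1 higher and 2 lower, where 36% of all genes were called, 18.5% higher and 17.4% lower. The effect in kidney tumors minus that in liver tumors was higher for 1 of the 9 and lower for 2, where 16.8% of all genes were called, 7.54% higher and 9.26% lower. The median difference of the 9 genes was -0.05 in kidney tumors against -0.11 over all genes, -0.05 in secondary tumors against -0.13 over all genes, and 0.47 in liver tumors against -0.13 over all genes. Counts out of 9 were not tested against these shares, and nothing particular to the members is read from them. With each array centred on its median, all genes were called 18.1% higher and 40.7% lower in kidney tumors, 23% and 54% in secondary tumors, 15.8% and 52.1% in liver tumors, and 15.7% and 24.7% in secondary against kidney tumors. Of the members, 3 were then higher and 3 lower in liver tumors, and 1 higher and 4 lower in secondary tumors against normal kidney. With so few arrays, all of these counts are imprecise.

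**Figure D1:**
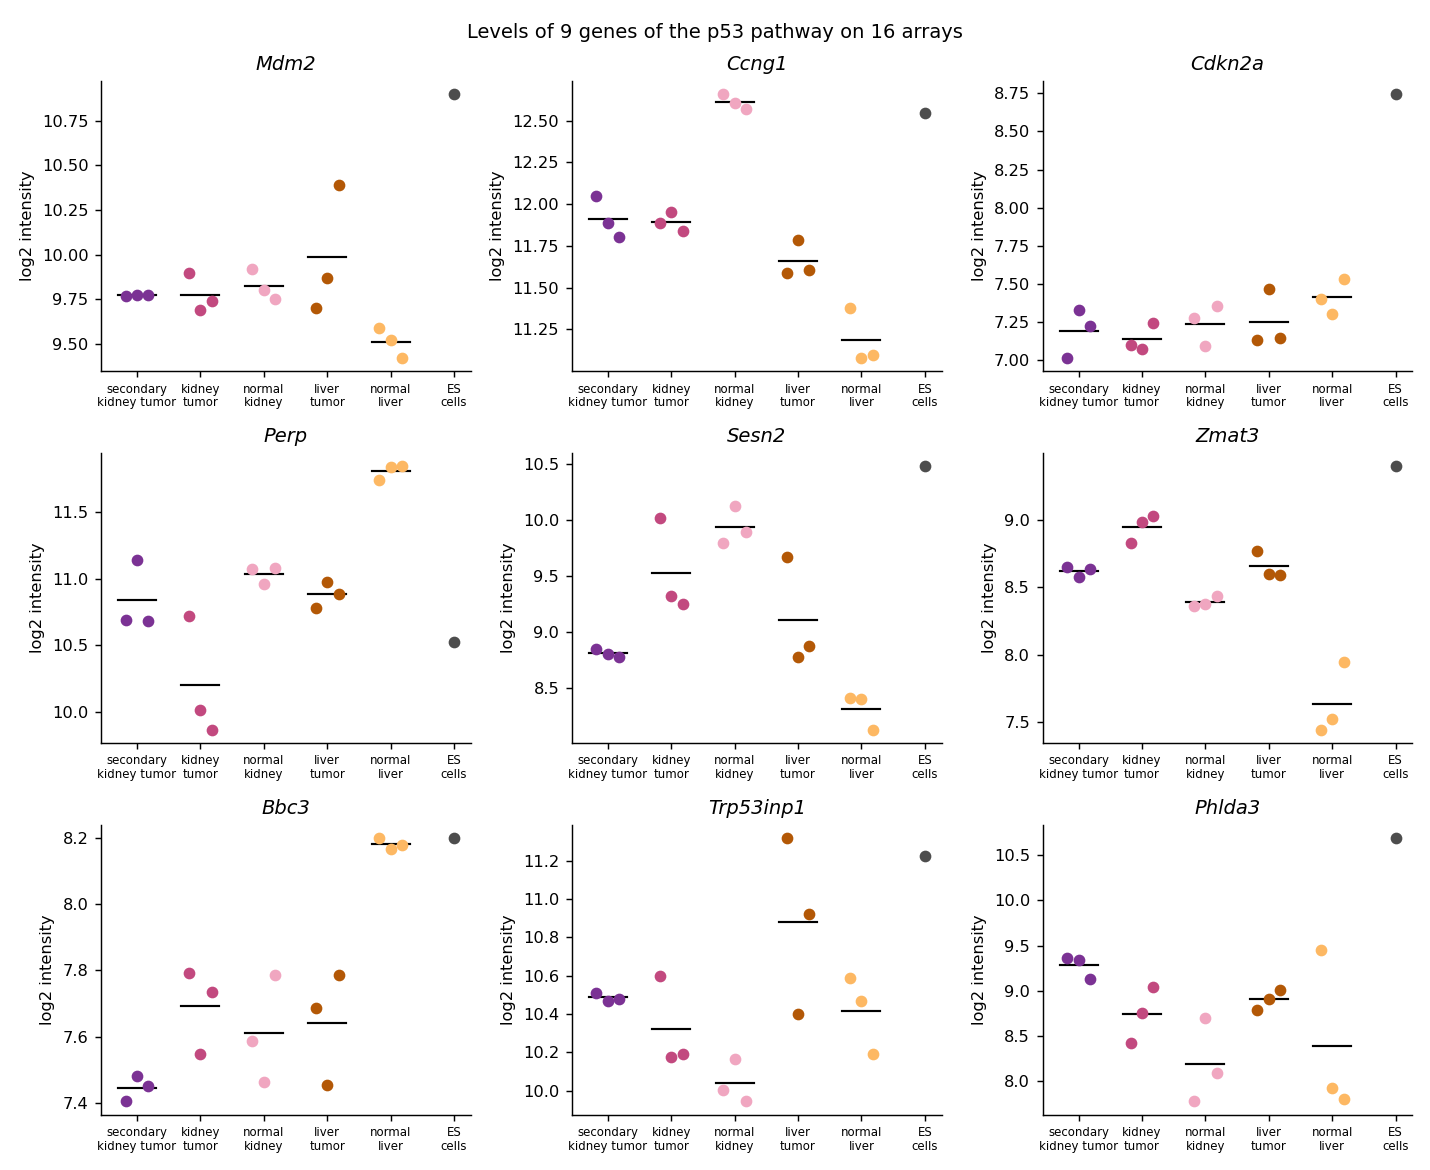
Log2 intensity of 9 genes of the p53 pathway on each of 16 arrays (points) by group, with the mean of each group of 3 as a line. Ccng1 stands between 11.80 and 12.05 in both kinds of kidney tumor, below normal kidney, and the liver tumors stand above normal liver, while the ES cell array is the highest for Mdm2, Cdkn2a, Sesn2, Zmat3 and Phlda3.

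Some arrays stood apart. Xist, an RNA made from the inactive X of female cells, was at 10.84 and 10.18 in kidney tumors 2 and 3 and at 10.45 and 11.35 in liver tumors 2 and 3, against 5.60 to 7.84 on all other arrays. Leaving out those of an organ leaves 1 tumor, taken to vary like the other groups, so that fewer genes pass: 28.7% of all genes were then called in kidney tumors and 29.4% in liver tumors. The Y-linked gene Eif2s3y stood at 9.18 and 7.80 in kidney tumors 2 and 3 and at 8.91 and 8.43 in liver tumors 2 and 3. It was at 10.04 in kidney tumor 1 and 10.09 in liver tumor 1. Whether the arrays with Xist signal hold cells of both sexes was not tested. The median of 5 measured adipocyte genes was 9.87 in secondary kidney tumor 1, 9.98 in normal kidney 2 and 10.45 in normal liver 1, against 6.79 to 7.52 on the other arrays. The labelled tissues had their markers: a list of 8 kidney tubule genes had array medians of 11.70 to 12.24 in kidney tumors and 13.13 to 13.17 in normal kidney, and 7 hepatocyte genes had medians of 12.99 to 13.38 in liver tumors and 13.67 to 13.72 in normal liver. Secondary kidney tumors had tubule medians of 6.62 to 6.72, so that tubule transcripts which the primary tumors still held were near the ES cell value of 7.12. Normal liver 1 had the tubule transcript Slc34a1 at 11.29, against 9.54 and 7.75 in normal livers 2 and 3. The median of 9 proliferation genes was 10.96 to 11.14 in secondary tumors, 10.82 to 11.55 in kidney tumors, 7.04 to 7.60 in normal kidney, 10.77 to 11.30 in liver tumors and 9.30 to 9.78 in normal liver. The array medians of pluripotent cell, myeloid and fibroblast genes were also higher in both kinds of kidney tumor than in normal kidney, in that order of lists: they were 8.25 to 9.39, 9.27 to 10.13 and 10.97 to 11.46 in secondary tumors, 9.70 to 10.16, 8.96 to 9.80 and 9.01 to 9.66 in kidney tumors, and 6.47 to 6.69, 7.84 to 8.01 and 8.47 to 8.87 in normal kidney. In liver tumors they were 8.95 to 10.48, 9.39 to 10.15 and 8.81 to 10.18, against 6.47 to 6.51, 8.87 to 8.95 and 8.91 to 9.90 in normal liver, where the fibroblast medians overlapped. Endothelial genes had lower medians in secondary tumors (8.38 to 8.54) and kidney tumors (8.85 to 9.35) than in normal kidney (9.73 to 9.91), and overlapped in liver tumors (8.92 to 10.25) and normal liver (8.94 to 9.81). The part of these cells in the differences below was not tested. In bulk tissue, fewer cells of a type and less RNA per cell cannot be told apart.

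Mdm2, the negative regulator of p53, was higher in liver tumors than in normal liver and at the same level in kidney tumors, secondary tumors and normal kidney. Its log2 level was 9.77, 9.78 and 9.78 in secondary kidney tumors 1 to 3, 9.90, 9.69 and 9.74 in kidney tumors and 9.92, 9.80 and 9.75 in normal kidneys. These 3 groups overlapped, and the differences from normal kidney were -0.05 ± 0.14 in kidney tumors (adjusted p 0.787 in limma) and -0.05 ± 0.14 in secondary tumors (adjusted p 0.751). In liver tumors 1 to 3 it was 9.70, 9.87 and 10.39, against 9.59, 9.52 and 9.42 in normal livers. All liver tumors lay above all normal livers, with liver tumor 3 the highest, and the difference was 0.48 ± 0.14 (1.39-fold, n = 3 each, adjusted p 0.0125 in limma). Without liver tumor 3 the difference was 0.27, and without both liver tumors with Xist signal it was 0.19 and not called (adjusted p 0.222). It was also not called with each array centred on its median (0.28, adjusted p 0.106) or with the liver arrays fitted alone (adjusted p 0.08), and the adjusted p ran from 0.00196 to 0.222 over 16 alternatives. The tumor effect in kidney minus that in liver was -0.52 ± 0.20 and did not pass (adjusted p 0.0903). It passed without liver tumor 1 (-0.67, adjusted p 0.0198), and its adjusted p ran from 0.0198 to 0.734 over 23 alternatives.

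Cdkn2a, which encodes the Ink4a inhibitor of cyclin-dependent kinases as well as Arf, did not pass in any of the comparisons. It stood at 7.02, 7.33 and 7.22 in secondary kidney tumors, 7.10, 7.07 and 7.24 in kidney tumors and 7.27, 7.09 and 7.35 in normal kidneys. Liver tumors had 7.13, 7.46 and 7.15, against 7.40, 7.30 and 7.53 in normal livers. All 5 tissue groups overlapped with their neighbours in level. The differences from normal tissue were -0.10 ± 0.12 in kidney tumors (adjusted p 0.491 in limma), -0.05 ± 0.12 in secondary tumors (0.712) and -0.16 ± 0.12 in liver tumors (0.241). With each array centred on its median, Cdkn2a was called lower in secondary tumors (-0.28, adjusted p 0.0381) and in liver tumors (-0.36, adjusted p 0.0122). Over 16 alternatives each, the adjusted p ran from 0.0381 to 0.961 in secondary tumors and from 0.0122 to 0.52 in liver tumors. The ES cell array had 8.74, which was 1.21 above the highest tissue array. The files hold no detection p, so a low level of this transcript could not be told from background.

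Ccng1, which encodes cyclin G1, a target of p53 that recruits a phosphatase to Mdm2, moved in opposite directions in kidney and in liver. Its level was 12.05, 11.88 and 11.80 in secondary kidney tumors, 11.89, 11.95 and 11.84 in kidney tumors and 12.66, 12.60 and 12.57 in normal kidneys. Every tumor of both kinds lay below every normal kidney, and the tumor groups overlapped each other. Ccng1 fell by 0.72 in kidney tumors (-0.72 ± 0.10, 0.609-fold, n = 3 each, adjusted p 4.34e-05 in limma) and by 0.70 in secondary tumors (-0.70 ± 0.10, adjusted p 2.87e-05). Liver tumors had 11.59, 11.78 and 11.60, against 11.38, 11.08 and 11.10 in normal livers. All liver tumors lay above all normal livers, with normal liver 1 the nearest, and the difference was 0.47 ± 0.10 (1.39-fold, adjusted p 0.00136). The kidney tumor effect minus that in liver was -1.19 ± 0.13 (adjusted p 0.000114 in limma). It was called under each of 23 alternatives, between -1.29 and -1.04, and stood at -1.12 without any tumor array with Xist signal. The effect within each organ depended more on scaling: with quantile normalization it was -0.32 in kidney tumors, -0.26 in secondary tumors and 0.72 in liver tumors, and with centred arrays 0.27 in liver tumors, all of them called. In the order of levels, normal kidney came first, then the ES cell array at 12.55, both kinds of kidney tumor, liver tumors and normal liver, and secondary and primary kidney tumors were the only neighbours in that order whose arrays overlapped.

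**Figure D2:**
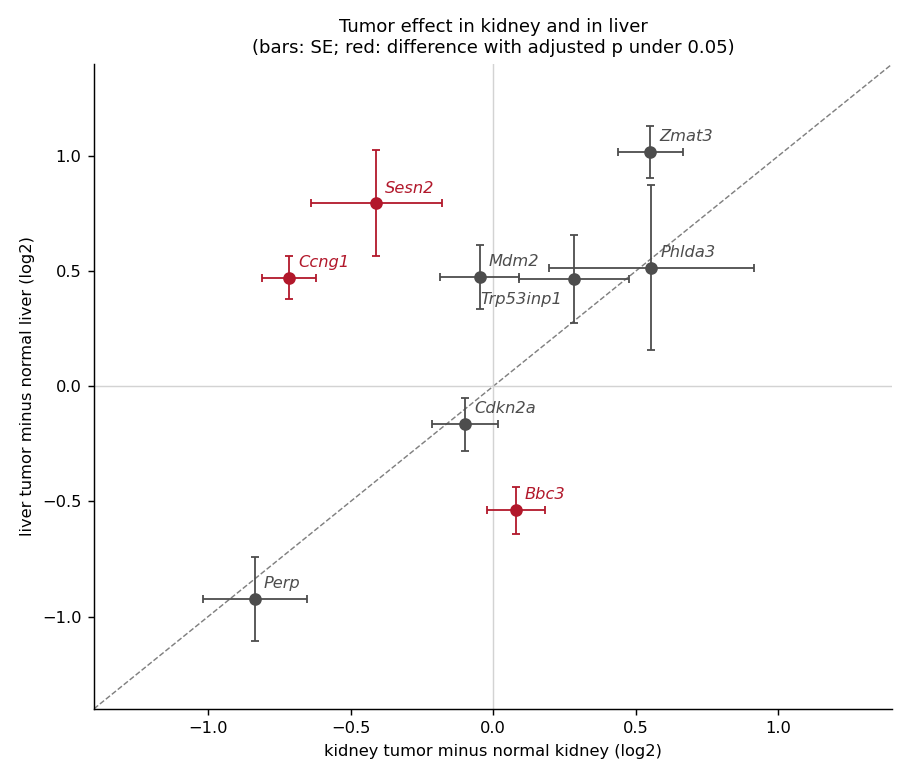
Log2 difference of liver tumor minus normal liver (vertical) against kidney tumor minus normal kidney (horizontal) for 9 genes, with SEs as bars and equal effects on the dashed line. Ccng1 and Sesn2 lie left of 0 in kidney and above 0 in liver, Bbc3 lies below 0 in liver only, and these 3 in red passed the test of the difference between organs.

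Zmat3, a zinc finger RNA-binding protein gene and direct p53 target, was higher in kidney tumors and in liver tumors than in the normal organ. It stood at 8.82, 8.98 and 9.03 in kidney tumors, against 8.36, 8.38 and 8.44 in normal kidneys. The groups did not overlap, and the difference was 0.55 ± 0.11 (1.47-fold, n = 3 each, adjusted p 0.00123 in limma). Without kidney tumors 2 and 3, which had Xist signal, it was 0.43 and not called (adjusted p 0.0755, the highest of 16 alternatives, whose lowest was 0.0011). Liver tumors had 8.77, 8.60 and 8.60, against 7.45, 7.52 and 7.94 in normal livers. Again no arrays overlapped, and the difference of 1.02 ± 0.11 (2.02-fold, adjusted p 1.54e-05) was called under all 16 alternatives. Secondary kidney tumors had 8.65, 8.58 and 8.63, all above normal kidney, but their difference of 0.23 ± 0.11 did not pass (adjusted p 0.0894). It passed when only secondary tumors and normal kidney were fitted (adjusted p 0.0109), and the adjusted p ran from 0.0109 to 0.994 over 16 alternatives. Against kidney tumors, secondary tumors were lower by -0.32 ± 0.11 (adjusted p 0.0404). That call was lost under 9 of 16 alternatives (adjusted p from 0.0197 to 0.406), among them leaving out kidney tumor 2 or 3 (0.105 and 0.117) or secondary tumor 1, 2 or 3 (0.0727, 0.11 and 0.0829), and the difference was -0.20 without the kidney tumors with Xist signal. The effect in kidney minus that in liver was -0.47 ± 0.16 and did not pass (adjusted p 0.0654). It passed without normal liver 3 (-0.62, adjusted p 0.00454), and its adjusted p ran from 0.00454 to 0.2 over 23 alternatives.

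Sesn2, which encodes sestrin 2, a stress-induced inhibitor of the growth kinase complex mTORC1, was lower in secondary kidney tumors than in normal kidney and higher in liver tumors than in normal liver. It stood at 8.85, 8.80 and 8.77 in secondary kidney tumors, 10.02, 9.32 and 9.25 in kidney tumors and 9.79, 10.13 and 9.89 in normal kidneys. Secondary tumors lay below all arrays of both other groups, while kidney tumor 1 lay within normal kidney and kidney tumors 2 and 3 below it. The difference from normal kidney was -1.13 ± 0.23 in secondary tumors (0.457-fold, n = 3 each, adjusted p 0.000805 in limma), called under all 16 alternatives, and -0.41 ± 0.23 in kidney tumors (adjusted p 0.155). The kidney tumors passed only without kidney tumor 1 (-0.66, adjusted p 0.0224), and with kidney tumor 1 as the sole kidney tumor the difference was 0.08 (adjusted p 0.871). Secondary tumors were lower than kidney tumors by -0.72 ± 0.23 (adjusted p 0.0267). This was -0.47 without kidney tumor 1 (adjusted p 0.111), and without secondary tumor 1, 2 or 3 the adjusted p was 0.0541, 0.066 and 0.0695, within a range of 0.00744 to 0.111 over 16 alternatives. Without the kidney tumors with Xist signal it was -1.21. Liver tumors had 9.67, 8.78 and 8.87, against 8.41, 8.40 and 8.13 in normal livers. All liver tumors lay above all normal livers, liver tumor 1 by the most, and the difference was 0.79 ± 0.23 (1.73-fold, adjusted p 0.012). It was 0.51 without liver tumor 1 (adjusted p 0.0408), 1.36 without the liver tumors with Xist signal, and 0.61 and not called with quantile normalization (adjusted p 0.0746, the highest of 16 alternatives, whose lowest was 0.00258). The kidney and the liver tumor effect differed by -1.20 ± 0.32 (adjusted p 0.0227). That call was lost under 7 of 23 alternatives (adjusted p from 0.0034 to 0.265), among them leaving out kidney tumor 2 or 3 (0.0586 and 0.0595), normal kidney 2 (0.0597) or normal liver 3 (0.0588), and it was -0.72 without the kidney tumors with Xist signal.

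Bbc3, which encodes the apoptosis inducer Puma, was lower in liver tumors than in normal liver. It stood at 7.69, 7.46 and 7.79 in liver tumors, against 8.20, 8.17 and 8.18 in normal livers. No arrays overlapped, and Bbc3 fell by 0.54 (-0.54 ± 0.10, 0.689-fold, n = 3 each, adjusted p 0.000866 in limma), a call that was kept under all 16 alternatives. Kidney tumors had 7.79, 7.55 and 7.74, and normal kidneys 7.59, 7.46 and 7.79, which overlapped (difference 0.08 ± 0.10, adjusted p 0.532). Secondary kidney tumors had 7.41, 7.48 and 7.45, with a difference from normal kidney of -0.17 ± 0.10 (adjusted p 0.162) that was called lower with quantile normalization (-0.38, adjusted p 0.00773) and with centred arrays (-0.39, adjusted p 0.0137), in a range up to 0.522 over 16 alternatives. Secondary minus primary kidney tumors was -0.24 ± 0.10 and did not pass (adjusted p 0.079), except with quantile normalization (adjusted p 0.0281) and without kidney tumor 2 (0.0474), in a range up to 0.215. The kidney and the liver effect differed by 0.62 ± 0.14 (adjusted p 0.0108). The call was kept under 22 of 23 alternatives (adjusted p from 0.00693 to 0.0554) and lost without the normal arrays with adipocyte signal, at 0.53 (adjusted p 0.0554).

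Perp, a tetraspan membrane protein of desmosomes that p53 induces during apoptosis and p63 in epithelia, was lower in the primary tumors of both organs than in the normal organs. It stood at 10.72, 10.01 and 9.87 in kidney tumors, against 11.07, 10.96 and 11.08 in normal kidneys. No arrays overlapped, kidney tumor 1 was the nearest to normal, and Perp fell by 0.84 (-0.84 ± 0.18, 0.56-fold, n = 3 each, adjusted p 0.00194 in limma). Without kidney tumors 2 and 3, which had Xist signal, the difference was -0.32 and not called (adjusted p 0.192), the only one of 16 alternatives that lost it, with a lowest adjusted p of 1.83e-05. Liver tumors had 10.78, 10.98 and 10.88, against 11.74, 11.84 and 11.84 in normal livers. The fall of 0.92 (-0.92 ± 0.18, 0.527-fold, adjusted p 0.00118) was called under all 16 alternatives, and the effects in kidney and in liver differed by 0.09 ± 0.26 (adjusted p 0.863). Secondary kidney tumors had 10.69, 11.14 and 10.68, and secondary tumor 2 lay above all normal kidneys (difference -0.20 ± 0.18, adjusted p 0.342). They were higher than kidney tumors by 0.64 ± 0.18 (adjusted p 0.0157), although kidney tumor 1 overlapped them. That call was lost without kidney tumor 2 (0.54, adjusted p 0.0655), kidney tumor 3 (0.47, 0.069) or secondary tumor 2 (0.48, 0.0771), with only these groups fitted (0.0979) and without the kidney tumors with Xist signal (0.12, 0.651). Over 16 alternatives its adjusted p ran from 0.000195 to 0.651. All 6 of 6 listed keratinocyte genes, markers of a cell type rich in desmosomes, were measured and had array medians of 8.98, 9.96 and 9.30 in secondary tumors 1 to 3, against 6.61 to 6.64 in kidney tumors, and their part in the Perp level was not tested. Trp63, which encodes p63 and is itself 1 of these 6 keratinocyte genes, stood at 8.42, 8.06 and 7.94 in the same secondary tumors, against 6.88, 7.07 and 7.03 in kidney tumors.

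Trp53inp1, a stress-response gene whose product promotes p53 activity and autophagy, did not pass in any comparison, though it lay near the threshold in 2 of them. It stood at 10.51, 10.47 and 10.48 in secondary kidney tumors, 10.60, 10.18 and 10.19 in kidney tumors and 10.01, 10.16 and 9.94 in normal kidneys. Both tumor groups lay above all normal kidneys, with differences of 0.45 ± 0.19 in secondary tumors (adjusted p 0.0533 in limma) and 0.28 ± 0.19 in kidney tumors (adjusted p 0.234). The secondary tumor difference passed under 4 of 16 alternatives, in a range of 0.00132 to 0.356, among them the fit with the replicate number as a block (adjusted p 0.0374). Liver tumors had 11.32, 10.40 and 10.92, against 10.59, 10.47 and 10.19 in normal livers, and these groups overlapped (difference 0.47 ± 0.19, adjusted p 0.0582). The liver difference passed without liver tumor 2 (0.71, adjusted p 0.00368), with liver tumor 1, the highest array, as the sole liver tumor (0.90, adjusted p 0.00388) and with the replicate block (adjusted p 0.0416), in a range of 0.00368 to 0.282 over 16 alternatives.

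Phlda3, a p53-induced inhibitor of the growth kinase Akt, was higher in secondary kidney tumors than in normal kidney. It stood at 9.36, 9.34 and 9.13 in secondary kidney tumors, 8.42, 8.75 and 9.04 in kidney tumors and 7.77, 8.70 and 8.08 in normal kidneys. Secondary tumors lay above all arrays of both other groups, and the difference from normal kidney was 1.10 ± 0.36 (2.14-fold, n = 3 each, adjusted p 0.0162 in limma). It was lost without normal kidney 1 (0.89, adjusted p 0.0694), the only one of 16 alternatives to do so, with a lowest adjusted p of 4.6e-05. Liver tumors had 8.79, 8.91 and 9.01, against 9.45, 7.92 and 7.79 in normal livers. Normal liver 1 and normal kidney 2, the highest normal arrays of their groups for Phlda3, were the normal arrays with adipocyte signal. Over all arrays, the differences were 0.55 ± 0.36 in kidney tumors (adjusted p 0.215) and 0.52 ± 0.36 in liver tumors (adjusted p 0.238). With both of those normal arrays left out of the same fit, the difference was 0.81 ± 0.17 in kidney tumors (adjusted p 0.00251). It was 1.05 ± 0.17 in liver tumors (adjusted p 0.000689) and 1.35 ± 0.17 in secondary tumors (adjusted p 4.6e-05), and all of these were called. Leaving out normal liver 1 alone also gave a call in liver (1.05, adjusted p 0.00357). Leaving out normal kidney 2 alone gave no call in kidney tumors, which passed under only 1 of 16 alternatives. All groups share each gene's spread, and normal liver had an SD of 0.92 for Phlda3 over its 3 arrays. Over 16 alternatives the adjusted p ran up to 0.786 in kidney tumors and 0.646 in liver tumors. Secondary tumor 1 also had adipocyte signal, and with it and normal kidney 2 left out together, an alternative chosen after seeing the data, the secondary tumor difference was 1.31 ± 0.44 (adjusted p 0.0246). Secondary minus primary kidney tumors was 0.54 ± 0.36 (adjusted p 0.261) and passed only with those groups fitted alone (adjusted p 0.0481), in a range up to 0.505.

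**Figure D3:**
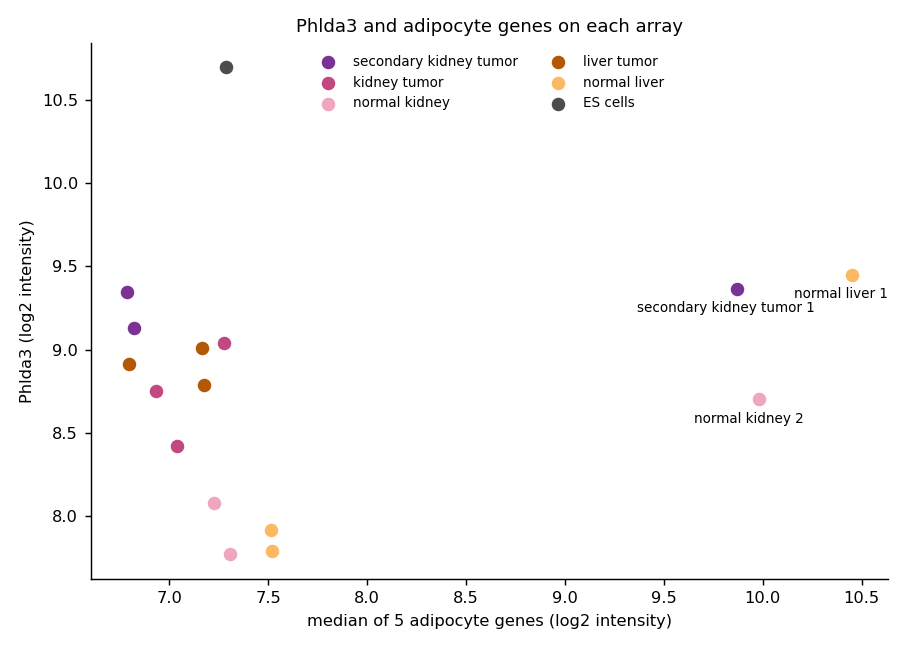
Log2 intensity of Phlda3 (vertical) against the median log2 intensity of 5 adipocyte genes (horizontal) on each of 16 arrays, coloured by group. Secondary kidney tumor 1, normal kidney 2 and normal liver 1 stand apart at adipocyte medians of 9.87, 9.98 and 10.45, and the normal arrays without that signal have Phlda3 between 7.77 and 8.08, below all tumor arrays.

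**Figure D4:**
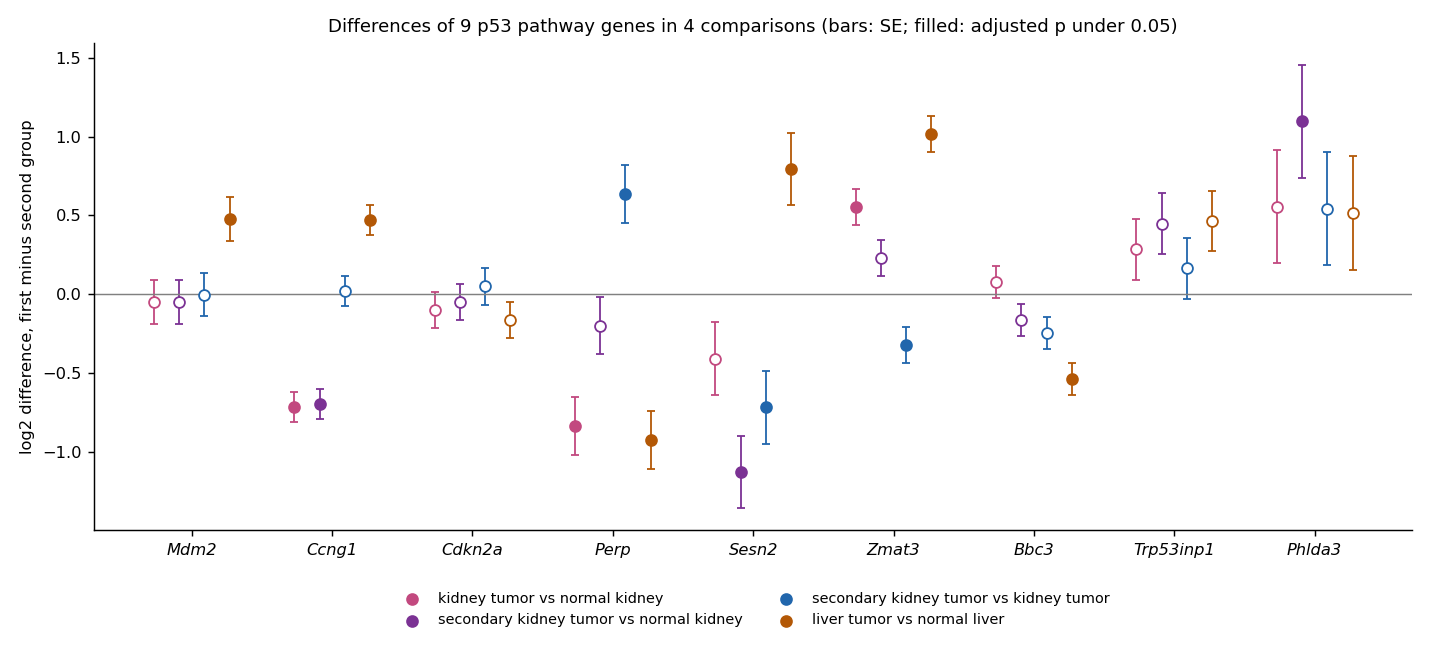
Log2 difference, first minus second group, of 9 genes in 4 comparisons (points) with the SE of the fit (bars), filled where limma's adjusted p was under 0.05. Ccng1 has filled points at -0.72 and -0.70 in kidney and 0.47 in liver, Zmat3 at 0.55 in kidney tumors and 1.02 in liver tumors, and Cdkn2a and Trp53inp1 have no filled point.

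The ES cell array, a single sample that was not tested, had the highest level of all 16 arrays for 5 of the 9 genes, or 55.6%, where it was the highest for 18.3% of all genes. These were Mdm2 (10.90, 0.51 above the next array), Cdkn2a (8.74), Sesn2 (10.48, 0.35 above), Zmat3 (9.40, 0.37 above) and Phlda3 (10.70, 1.25 above). Trp53inp1 had 11.22 in ES cells, 0.10 below liver tumor 1, and Bbc3 had 8.20, level with normal liver 1. Perp had 10.52, below all arrays of normal kidney, normal liver, liver tumor and secondary tumor. Of other p53 pathway genes, the ES cell array was the highest for 9 of 19 upstream regulators, 7 of 13 arrest and repair targets, 6 of 13 apoptosis targets, 3 of 12 metabolic and secreted targets and 7 of 18 genes of the Ink4 and Rb branch. In the order of group levels, neighbours often overlapped. For Mdm2 the arrays of adjacent groups were apart only between ES cells and liver tumors and between secondary tumors and normal liver. For Sesn2 they were apart only between ES cells and normal kidney and between secondary tumors and normal liver. For Phlda3 only ES cells and secondary tumors stood clear of the group below them. For Zmat3, as for Ccng1, only 1 adjacent pair overlapped, here liver tumors and secondary tumors.

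Several stress-responsive genes were highest in kidney tumor 1 among the kidney tumors and in liver tumor 1 among the liver tumors, the primary tumors without Xist signal. Kidney tumor 1 had Sesn2 at 10.02, against 9.32 and 9.25 in kidney tumors 2 and 3, and liver tumor 1 had 9.67, against 8.78 and 8.87 in liver tumors 2 and 3. Trp53inp1 had the same order, with 10.60 in kidney tumor 1 and 11.32 in liver tumor 1. Btg2, an antiproliferative p53 target, stood at 10.90 in kidney tumor 1 against 9.52 and 9.79 in kidney tumors 2 and 3, and at 10.85 in liver tumor 1 against 9.50 and 10.59 in liver tumors 2 and 3. Ddit4, an mTORC1 inhibitor gene induced by hypoxia and p53, stood at 10.93 in kidney tumor 1 against 9.75 and 10.05, and at 10.41 in liver tumor 1 against 9.95 and 9.92. The secondary tumors had no Xist signal either (6.01 to 6.32). Their Sesn2 at 8.77 to 8.85 and Ddit4 at 9.28 to 9.61 lay below all kidney tumors. Their Btg2 at 9.71 to 10.01 lay within the range of the kidney tumors and below kidney tumor 1. Their Trp53inp1 at 10.47 to 10.51 lay below kidney tumor 1 and above kidney tumors 2 and 3 (10.18 and 10.19). Of the members, only Sesn2 and Trp53inp1 were highest in tumor 1 of both organs. Mdm2 did not share this order in liver, where liver tumor 1 was the lowest of the tumors. Phlda3 had the opposite order, with 8.42 in kidney tumor 1 against 8.75 and 9.04, and 8.79 in liver tumor 1 against 8.91 and 9.01. Sesn2, Trp53inp1, Btg2 and Ddit4 were singled out after their values were seen, and the differences between tumors of 1 group were not tested.

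Other genes of the pathway were described by 5 lists. Of 19 measured upstream regulators and cofactors of p53, 12 were higher and 2 lower in kidney tumors (median difference 0.35), 12 higher and 1 lower in secondary tumors (0.35) and 12 higher and none lower in liver tumors (0.56). Over all genes, 21.7% were higher and 28.1% lower in kidney tumors, 29.9% and 38.7% in secondary tumors and 21.5% and 30.7% in liver tumors. Counts in the 5 lists were not tested against these shares. Chek1, the checkpoint kinase of replication stress, averaged 9.97 ± 0.60 in kidney tumors against 6.59 ± 0.17 in normal kidney, 9.48 ± 0.10 in secondary tumors, and 9.93 ± 0.46 in liver tumors against 8.12 ± 0.39 in normal liver. Its differences were 3.38 ± 0.29 in kidney tumors, 2.89 ± 0.29 in secondary tumors and 1.81 ± 0.29 in liver tumors. Trp53bp1, which encodes a protein of double-strand break repair that binds p53, was higher by 1.39 ± 0.15 in kidney tumors, 1.78 ± 0.15 in secondary tumors and 1.72 ± 0.15 in liver tumors. Both genes were higher in the tumors, as were the proliferation genes, whose part in these differences was not tested. Trp53bp1 averaged 7.76 in normal liver and 8.30 in normal kidney, and Chek1 8.12 and 6.59, where the proliferation medians averaged 9.46 and 7.31. On the ES cell array Trp53bp1 was 9.22 and Chek1 11.23, beside a proliferation median of 11.72. How these levels are related was not tested.

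Of 13 arrest and repair targets, 5 were higher and 3 lower in kidney tumors, 6 higher and 2 lower in secondary tumors and 7 higher and none lower in liver tumors, with medians of 0.40, 0.43 and 0.91. The shares of all genes higher and lower were 21.7% and 28.1%, 29.9% and 38.7%, and 21.5% and 30.7%, in the same order. Psrc1, which encodes a spindle protein, was higher by 2.31 ± 0.20 in kidney tumors, 1.87 ± 0.20 in secondary tumors and 1.87 ± 0.20 in liver tumors. Gtse1, a cell cycle gene whose product restrains p53 in G2, was higher by 2.20 ± 0.18 in kidney tumors. Rprm, a p53-dependent G2 arrest gene, was higher by 1.98 ± 0.21 in secondary tumors, and Btg2 by 1.45 ± 0.35 in liver tumors. Of 13 apoptosis targets, 8 were higher and 4 lower in kidney tumors (median 0.56), 6 higher and 2 lower in secondary tumors (0.01) and 8 higher and 3 lower in liver tumors (0.57). Trp53i11, a p53-induced gene, averaged 11.40 ± 0.41 in kidney tumors and 9.05 ± 0.0037 in normal kidney, a difference of 2.35 ± 0.17, and the secondary tumor difference was 2.77 ± 0.17. Apaf1, the scaffold of the apoptosome, was higher by 1.69 ± 0.17 in kidney tumors and 1.65 ± 0.17 in liver tumors. The death receptor gene Tnfrsf10b was higher by 1.73 ± 0.12 in liver tumors, and the receptor gene Eda2r by 1.56 ± 0.11 in secondary tumors.

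Of 12 targets of metabolism, stress and secretion, 2 were higher and 2 lower in kidney tumors, 5 higher and 6 lower in secondary tumors and 2 higher and 4 lower in liver tumors. Their median differences were -0.03, -0.24 and -0.13, with -0.11, -0.13 and -0.13 over all genes. Dcxr, a xylulose reductase gene of kidney and liver, fell by 2.06 in kidney tumors (-2.06 ± 0.24) and by 2.90 in secondary tumors (-2.90 ± 0.24). Ddit4 was higher by 1.82 ± 0.24 in kidney tumors and Pltp, a phospholipid transfer protein gene, by 3.02 ± 0.18 in secondary tumors. In liver tumors Thbs1, the thrombospondin 1 gene, was higher by 2.96 ± 0.42, and the thiamine transporter gene Slc19a2 lower by -1.62 ± 0.11. Of 18 genes of the Ink4 and Rb branch, which lies beside p53 downstream of Cdkn2a, 7 were higher and 4 lower in kidney tumors, 6 and 4 in secondary tumors and 5 and 5 in liver tumors. For both lists, the shares of all genes higher and lower were 21.7% and 28.1%, 29.9% and 38.7%, and 21.5% and 30.7%. Ccnd2, a D-type cyclin gene, was higher by 2.44 ± 0.27 in kidney tumors, 2.67 ± 0.27 in secondary tumors and 1.70 ± 0.27 in liver tumors. E2f3, a transcription factor gene of S phase entry, was higher by 2.05 ± 0.18 in kidney tumors and 1.49 ± 0.18 in secondary tumors, and Cdkn2c, the Ink4c inhibitor gene, was lower by -1.75 ± 0.18 in liver tumors. All differences named for these lists passed in limma with an adjusted p of 0.0042 or less, and these comparisons share the normal kidney arrays where they concern both kinds of kidney tumor.

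The same lists were counted in secondary against primary kidney tumors. Of the upstream regulators 3 of 19 were higher and 1 lower, of arrest and repair targets 3 of 13 higher and 2 lower, of apoptosis targets 1 of 13 higher and 4 lower, of metabolic and secreted targets 5 of 12 higher and 6 lower, and of the Ink4 and Rb branch 2 of 18 higher and 3 lower, where 18.5% of all genes were higher and 17.4% lower. Trp63, which also belongs to the keratinocyte genes counted above, was higher by 1.15 ± 0.15 (adjusted p 5.45e-05 in limma), and Ppp1r13b, a p53 cofactor gene of the ASPP family, by 0.65 ± 0.16. Plk2, a p53-induced polo-like kinase gene, was higher by 1.09 ± 0.22 and Sfn, the stratifin gene of G2 arrest in epithelia, by 0.94 ± 0.22. Without the kidney tumors with Xist signal, Ppp1r13b (0.50, adjusted p 0.148) and Sfn (0.74, adjusted p 0.0703) were not called. Pmaip1, which encodes the apoptosis inducer Noxa, was lower by -0.64 ± 0.15 and Tnfrsf10b by -0.64 ± 0.12. Pltp was higher by 1.97 ± 0.18, and the drug efflux pump gene Abcb1a lower by -1.13 ± 0.34, which was -0.57 without kidney tumor 1 and lost its call without secondary tumor 1 (adjusted p 0.0629) or 3 (0.053). Cdkn2c was higher by 0.93 ± 0.18 and Rb1, the retinoblastoma gene, by 0.60 ± 0.13.

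**Figure D5:**
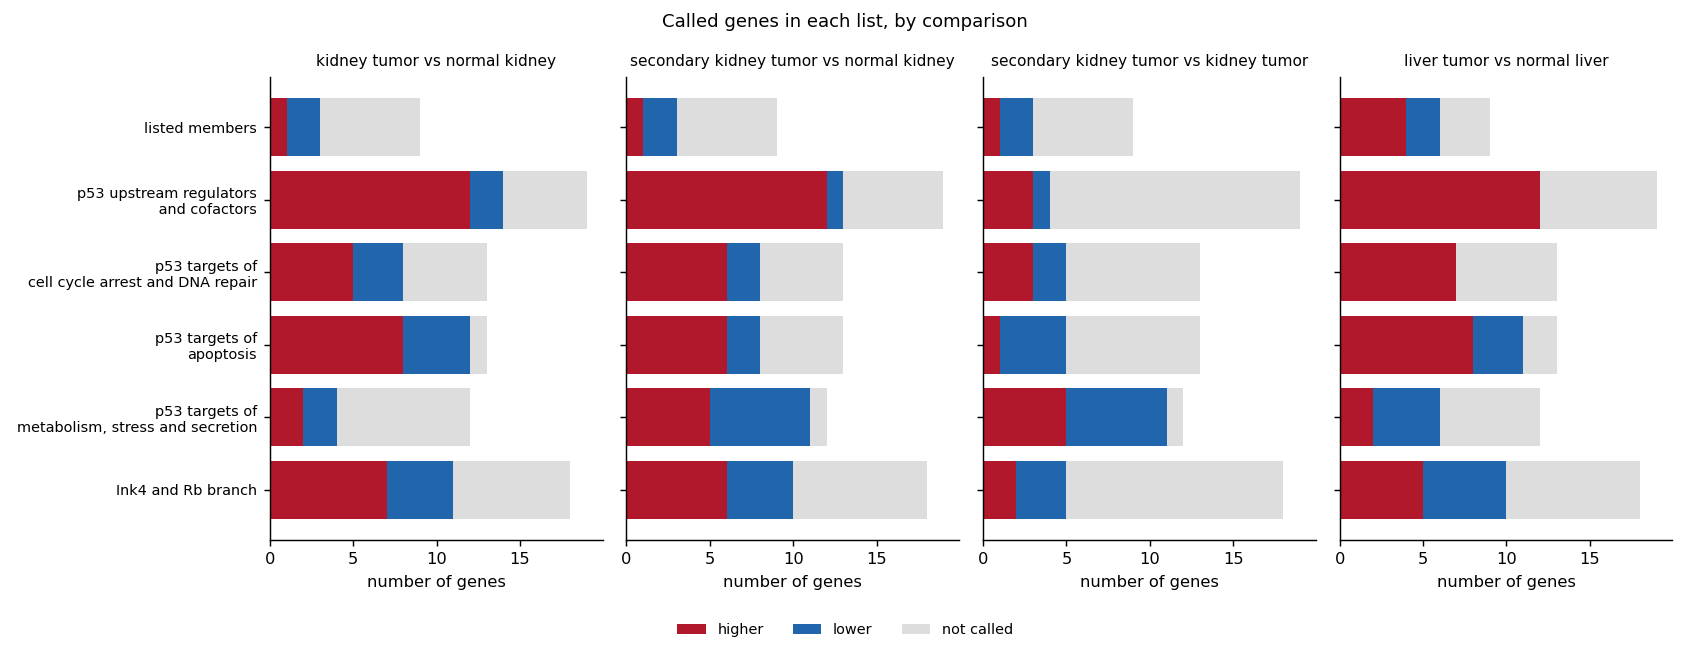
Number of genes called higher (red), called lower (blue) or not called (grey) in limma for the 9 measured members and 5 lists of other pathway genes, in 4 comparisons. The upstream regulators have 12 of 19 genes higher in each tumor group against normal tissue, while the 9 members have 1, 1 and 4 higher. Of all genes, 21.7% are higher in kidney tumors, 29.9% in secondary tumors and 21.5% in liver tumors.

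For each of the 9 genes the most alike gene was sought by the root mean square difference between centred log2 profiles over the 16 arrays, among up to 9741 genes above the median level. For Ccng1 it was Maf1, at 0.15 log2 units against a median of 0.62 over those genes, and for Zmat3 it was Hira, at 0.15 against 0.63. For Mdm2 it was Rnf31 (0.145, against 0.54), for Cdkn2a Tmco6 (0.16, 0.58), for Perp Dnajb2 (0.22, 0.74) and for Sesn2 Plekha7 (0.30, 0.78). For Bbc3 it was Mrpl52 (0.14, 0.55), for Trp53inp1 Ccdc120 (0.20, 0.60) and for Phlda3 Chst12 (0.33, 0.82). None of these nearest genes was another of the 9. Cdkn2a and Bbc3, with 36.5% and 43.4% of genes below them in level, were under the median and could not be chosen. Among so many candidates this does not show whether the members vary together, which was not tested.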

How the data were processed

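Per the labels' protocols, an RNeasy Plus Mini kit gave total RNA, which was biotin-labelled with the WT Terminal Labeling kit for 16 arrays. The authors deposited linear intensity values for every probe set of every array, which ran from 20.7 to 20262 with array medians of 191 to 226. How the authors corrected, summarised and normalized them is not given in the sources used here, and the submitters' processing notes name only the build mm9. Intensities were turned to log2 and not rescaled. Probe sets with 1 gene symbol in the platform annotation of 2016 were used, 21789 of 28856, and the brightest on average was kept for each of 19938 genes, dim ones included.

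The comparisons used limma 3.58.1 (R 4.3.3) on a model of group means fitted to all 16 arrays, with 10 residual and 2.66 prior degrees of freedom, 2-sided, with Benjamini-Hochberg adjustment over all genes and calls at an adjusted p under 0.05. All groups share each gene's spread, which understates the error of a group that scatters more than the rest. The members, the lists and the tests were chosen with earlier results of these data known. The lists were upstream regulators, targets of arrest and repair, of apoptosis, and of metabolism, stress and secretion, and the Ink4 and Rb branch. The text names all 9 members throughout, and per comparison the 2 called genes of largest change from each list. The nearest profiles were sought among genes above the median level, without predicted genes, receptor families and small RNAs. The code was tested on simulated data. The alternatives were the compared groups alone, quantile normalization, centring, a filter on dim genes, other handling of probe sets, an intensity trend, a replicate block, and leaving out arrays.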

Additional observations from a re-analysis of the deposited data

Results flagged for a closer look

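The tumor effect in kidney differed from that in liver for 13 of the named genes, by the test of the difference itself in limma with 3 arrays per group. Genes outside the 9 members were named here because they passed this test, so their number follows from that rule. In this test 1 of 19 upstream regulators was higher and 1 lower, and 1 of 13 arrest and repair targets higher and 3 lower. Of 13 apoptosis targets 2 were higher and none lower, and of 12 metabolic and secreted targets 2 higher and 1 lower. Of 18 Ink4 and Rb genes 3 were higher and 2 lower, where 7.54% of all genes were higher and 9.26% lower. Of the 9 members, those that passed were Ccng1, with a kidney minus liver difference of -1.188, Sesn2 with -1.204 and Bbc3 with 0.617, all on the log2 scale. Among the other pathway genes, the difference was 1.575 for Chek1, 1.165 for Gtse1, 1.418 for Trp53i11, 0.886 for Siva1, an apoptosis gene, 1.419 for Slc19a2, 1.223 for the T-box gene Tbx3 and 1.12 for E2f1. It was -0.637 for the deacetylase gene Sirt1, -1.149 for the translesion polymerase gene Polk and -2.425 for Thbs1. Sirt1 lost its call without normal kidney 2 (adjusted p 0.0522), normal liver 2 (0.0533) or the normal arrays with adipocyte signal (0.0643), and Siva1 kept its call under 14 of 23 alternatives, losing it among others with these groups alone (0.0512) and without kidney tumor 3 (0.0541). With kidney tumor 1 as the sole kidney tumor, a comparison in which 8.49% of all genes were called, the Chek1 difference was 0.88 (adjusted p 0.234), that of Gtse1 0.81 (0.101), that of Siva1 0.53 (0.22) and that of Sesn2 -0.72 (0.265), none of them called. That of Thbs1 was larger in size then, at -2.76, with an adjusted p of 0.0511. The proliferation genes also differed less between liver tumors and normal liver than between kidney tumors and normal kidney, with array medians of 10.77 to 11.30 in liver tumors against 9.30 to 9.78 in normal liver, and 10.82 to 11.55 in kidney tumors against 7.04 to 7.60 in normal kidney. Their part in these differences was not tested.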

How the results depend on the processing

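Of 783 values of the 9 members under the alternatives, 728 kept their side of the threshold, 34 lost a call and 21 gained one; no called change turned its sign, and 33 signs turned where neither value was called. Centring the arrays moved the median over all genes to -0.24 in kidney tumors, -0.35 in secondary tumors and -0.33 in liver tumors.

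These counts of members called moved by over 1.5 times. In kidney tumors against normal kidney (1 higher, 2 lower) there were 2 higher without the normal arrays with adipocyte signal, where 19.8% of all genes were higher. That setting left out normal kidney 2 and normal liver 1 together. In secondary tumors against normal kidney (1 higher, 2 lower) 3 were higher with these groups alone, where 31.9% of all genes were higher. Quantile normalization, the intensity trend and the replicate block each gave 2 higher, where 30.1%, 29.8% and 29.7% of all genes were higher. With centred arrays 4 were lower, where 54% of all genes were lower, against 38.7% before. In secondary against kidney tumors (1 higher, 2 lower) there was 1 lower with the trend, where 17.3% of all genes were lower. Leaving out secondary tumor 1, 2 or 3 gave 0 lower each, where 14.1%, 12.7% and 13.1% of all genes were lower. For kidney minus liver (1 higher, 2 lower) 0 were higher and 1 lower without the normal arrays with adipocyte signal. Of all genes, 5.09% were then higher and 6.72% lower. Quantile normalization gave 1 lower, where 8.05% of all genes were lower. Smaller moves were to 3 lower with quantile normalization in secondary tumors, where 33% of all genes were lower. In liver tumors (4 higher, 2 lower) these groups alone or quantile normalization gave 3 higher, where 17.6% and 20.8% of all genes were higher. Centring gave 3 higher and 3 lower there, where 15.8% of all genes were higher and 52.1% lower. Leaving out normal liver 1 gave 5 higher, where 19.9% of all genes were higher. Leaving out 1 array at a time gave these member counts, with shares of all genes in brackets. Kidney tumors had 1 to 1 higher (18.9% to 22.6%) and 2 to 3 lower (23.1% to 27.7%). Secondary tumors had 0 to 1 higher (27.7% to 28.5%) and 2 to 2 lower (33.8% to 36.8%). Secondary against kidney tumors had 0 to 1 higher (16% to 17.4%) and 0 to 2 lower (12.7% to 16.3%). Liver tumors had 4 to 5 higher (18.5% to 23.5%) and 2 to 2 lower (24.5% to 31%). Kidney minus liver had 1 to 1 higher (5.65% to 10.6%) and 1 to 3 lower (6.99% to 12.3%).

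The titles number the samples 1 to 3 in each group. Same-numbered arrays had correlated deviations from their group means between -0.278 and 0.15. For each number, the same-numbered array correlated best in kidney tumors against normal kidney (0.046 to 0.061) and in secondary against kidney tumors (0.037 to 0.139). In secondary tumors against normal kidney that held for number 3 only, and in liver for none. Kidney and liver tumors were not compared in this way. The labels name no shared animal or batch, so whether same-numbered samples are related is not known. The replicate block gave these member counts, with shares of all genes in brackets. Kidney tumors had 1 higher (21.5%) and 2 lower (27.6%), and secondary tumors 2 (29.7%) and 2 (38.3%). Secondary against kidney tumors had 1 higher (18.2%) and 2 lower (17%). Liver tumors had 5 higher (21.3%) and 2 lower (30.1%), and kidney minus liver 1 (7.48%) and 2 (9.04%). Folds of dim probe sets are compressed, and the files hold no detection call. The alternatives without the liver tumors with Xist signal, without every tumor with Xist signal and without secondary tumor 1 were chosen after seeing the data.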
